A study of Homo sapiens with 4 samples.

Results

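The genes described here are 36 genes of the unfolded protein response and of protein folding in the endoplasmic reticulum (ER), chosen by symbol from a list of their known roles: ER stress sensors, XBP1, ER chaperones, disulfide isomerases, genes of ER-associated degradation and subunits of the translocon. The choice was made with earlier results of these data known. All 36 genes were found among the 25277 symbols of the expression table. They were followed in 4 RNA-seq libraries of Mino and Z138, established lines of human mantle cell lymphoma, a cancer of B cells. BTK is a kinase downstream of the B cell receptor. The groups were Mino shBTK (stable Mino cells with a hairpin against BTK), Mino control (stable Mino cells with the control vector, labelled sc4), Z138 shBTK and Z138 control, made in the same way from Z138. Doxycycline was given for 48 hours to every culture, controls included. Each group had 1 library and there was 1 hairpin, so an effect of the hairpin on other genes and an effect of BTK loss cannot be told apart. The labels name no insert for the control vector.

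The ER folds secreted and membrane proteins. When unfolded protein builds up there, the sensors ERN1 (IRE1), ATF6 and EIF2AK3 (PERK) start the unfolded protein response: ERN1 splices XBP1 mRNA into the form that encodes an active transcription factor, ATF6 is cut to release another, and PERK slows translation. XBP1 and ATF6 raise the transcription of chaperones, disulfide isomerases, degradation factors and the translocon through short promoter elements. In B cells XBP1 is known for expanding the ER as cells turn into antibody-secreting plasma cells.

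Expression was given as FPKM, fragments scaled by transcript length and by library size, so levels can be set beside each other between genes. Differences are on the log2(FPKM + 1) scale, written as log2 units. Columns summed to between 669013 and 740192 FPKM, and read depth is unknown. The hairpin target BTK fell in both lines, to 9.84 FPKM in Mino shBTK against 37.0 in Mino control and to 12.4 in Z138 shBTK against 51.0 in Z138 control, a mean change of −1.88 log2 units (SE 0.13, limma adjusted p = 0.000964) that had the same direction in 2 of 2 lines. The B cell and lymphoma markers MS4A1, CD79A, CD79B, PAX5 and SOX11 were between 14.5 and 744 FPKM in every library. CD5, of the same list, was low, at 0.0531 and 0.0751 FPKM in Z138 shBTK and Z138 control and at 1.70 and 2.33 in Mino shBTK and Mino control. CCND1, the cyclin D1 gene that marks this lymphoma, was at 600.5 and 591 FPKM in Z138 shBTK and Z138 control but at only 2.62 and 3.18 in Mino shBTK and Mino control, and the epithelial genes KRT8 (22.5 and 25.5 FPKM), EPCAM (7.56 and 7.29) and KRT18 (6.13 and 6.07) were present in Mino shBTK and Mino control. The T cell genes CD3E (2.07 and 1.69 FPKM) and CD3G (2.48 and 2.71) were low in Z138 shBTK and Z138 control, and CD8A was at 1.38 and 2.01 in Mino shBTK and Mino control. The myeloid markers CD14, LYZ, CSF1R, S100A8 and S100A9 were all under 1 FPKM. The Z138 control library stands apart in that EEF1A1 was listed at 0 there, while the remaining 3 libraries held 6404 to 6976 FPKM. Every Z138 difference rests on that library.

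All 36 genes passed the filter of a mean of 1 FPKM over the 4 libraries, which left 11484 symbols. Their levels spanned a wide range, with ATF6 the lowest in each library (5.26 to 8.62 FPKM). The highest was the translocon gene SEC61B in both Mino libraries (525 and 486 FPKM) and SSR2, a subunit of the translocon-associated TRAP complex, in both Z138 libraries (1107 and 1366 FPKM). The median of the 36 genes was 61.6 FPKM in Mino shBTK, 46.0 in Mino control, 127 in Z138 shBTK and 133 in Z138 control. That median lay above 85% to 94.9% of all tested symbols, depending on the library.

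**Figure D1:**
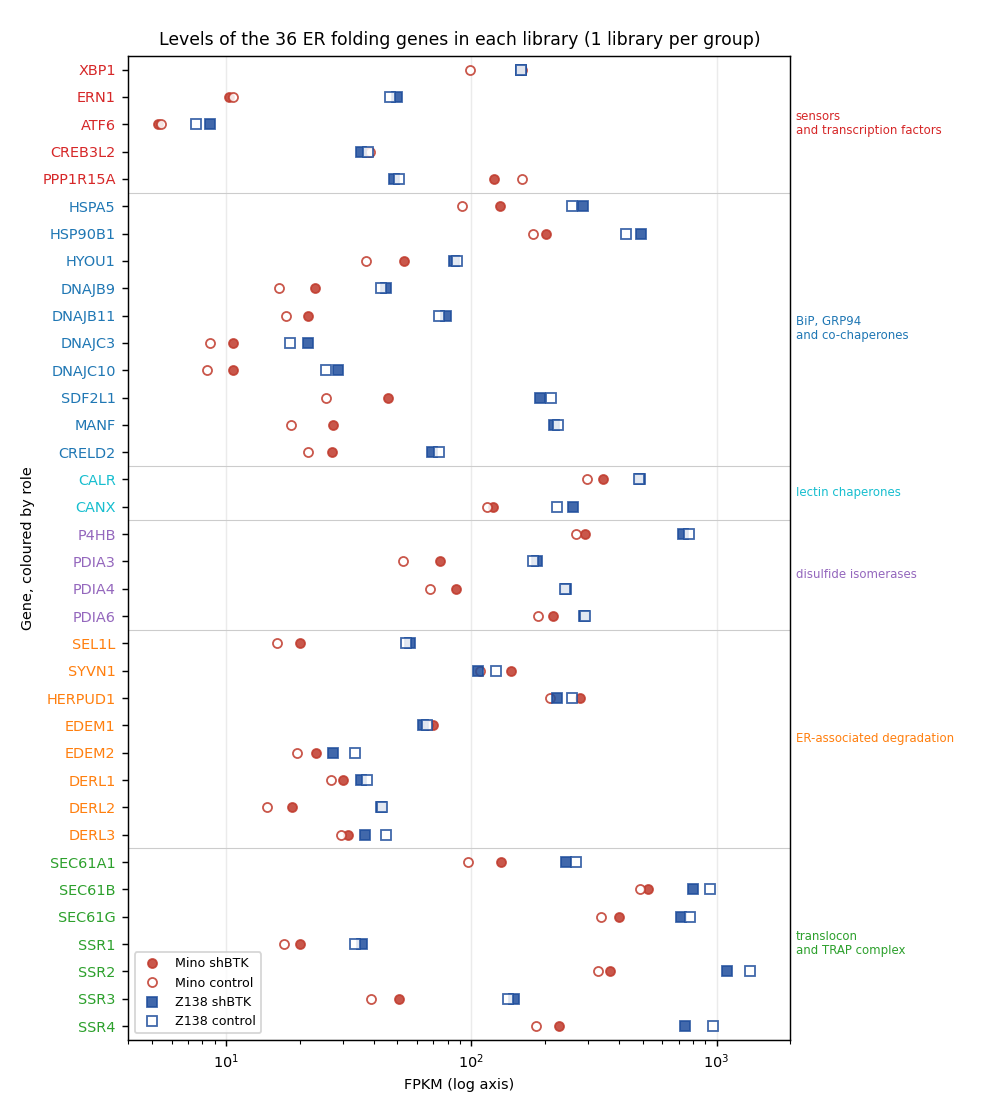
FPKM (log axis) of the 36 genes in each library, rows grouped by role, filled points for shBTK and open points for control, circles for Mino and squares for Z138. Mino shBTK lies right of Mino control for 32 of the 36 genes, and the Z138 points lie right of the Mino points for most chaperones, isomerases and translocon genes.

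The first comparison set Mino shBTK against Mino control. With 1 library per group it has no replicate check, and it is described by size alone. As the genes were chosen with earlier results of these data known, the shares of all symbols beside them are a description, not a test. Of the 36 genes, 32 were higher in Mino shBTK and 4 were lower, where 47.7% of all tested symbols were higher and 51.9% lower. At a difference of at least 0.32 log2 units, the smaller of the thresholds used, 14 were higher against 4.44% of all symbols, and 1 was lower against 5.75%. At 1.5-fold, 2 were higher (0.923% of all symbols) and 0 lower (1.24%). The median difference was 0.28 log2 units over the 36 genes and −0.01 over all tested symbols. The 4 lower genes were the sensors ERN1 and ATF6, the ATF6-like factor CREB3L2 and the phosphatase subunit PPP1R15A, so every chaperone, isomerase, degradation and translocon gene of the set was on the higher side. With trends on GC content and length removed, ERN1 (0.02), ATF6 (0.05) and CREB3L2 (0.04) were just above 0 and 35 genes were higher. In a bulk library, a change in the share of cells that express a gene and a change in the RNA per cell cannot be told apart.

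Among the sensors and transcription factors, XBP1 stood apart. It was at 160.4 FPKM in Mino shBTK and 98.4 in Mino control, a difference of 0.70 log2 units. In Z138 it was at 159 FPKM in Z138 shBTK and 160.1 in Z138 control, so 3 of the 4 libraries held nearly the same level and Mino control was the low one. Gene-level FPKM does not separate spliced from unspliced XBP1 mRNA. ERN1, the kinase and nuclease that splices it, was at 10.3 and 10.7 FPKM in Mino shBTK and Mino control and at 49.6 and 46.4 in Z138 shBTK and Z138 control. ATF6 was at 5.26 and 5.41 FPKM in Mino shBTK and Mino control and at 8.62 and 7.57 in Z138 shBTK and Z138 control, with differences of −0.04 and 0.17 log2 units. CREB3L2 was nearly level throughout, at 37.8 and 38.7 FPKM in Mino shBTK and Mino control and 35.5 and 38.0 in Z138 shBTK and Z138 control. Neither sensor nor CREB3L2 shared the XBP1 difference in Mino. PPP1R15A, which brings a phosphatase to the translation factor eIF2-alpha and so restores translation, went the other way from the chaperones. It was at 124 FPKM in Mino shBTK and 161 in Mino control, a difference of −0.37 log2 units and the only one of the 36 past −0.32, and at 48.3 and 50.9 in Z138 shBTK and Z138 control.

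The XBP1 promoter is shown because XBP1 is itself a known target of the response. The sequence is the 250 bases before the start site, from RefSeq on GRCh38.p14, in the direction of the gene, with the ER stress response element (ERSE) in capitals. The match ends 33 bases before the start site.
XBP1, chr22:28800570-28800819, minus strand: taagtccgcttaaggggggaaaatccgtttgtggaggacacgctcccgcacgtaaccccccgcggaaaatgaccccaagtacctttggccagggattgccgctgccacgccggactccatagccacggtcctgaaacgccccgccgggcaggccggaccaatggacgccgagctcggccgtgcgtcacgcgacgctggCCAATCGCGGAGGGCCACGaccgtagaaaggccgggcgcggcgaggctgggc

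BiP and its partners had the highest median of the roles in Mino. All 10 genes of this group were higher in Mino shBTK, 6 of them by at least 0.32 log2 units, with a median of 0.39 log2 units. HSPA5, which encodes BiP, the main HSP70 chaperone of the ER, was at 131 FPKM in Mino shBTK and 91.5 in Mino control, a difference of 0.51 log2 units. In Z138 it was at 285 and 257 FPKM in Z138 shBTK and Z138 control, a difference of 0.15. SDF2L1, a partner of the co-chaperone ERdj3, had the largest difference of the 36 genes in Mino, 0.82 log2 units, at 45.8 FPKM in Mino shBTK against 25.5 in Mino control. In Z138 it was lower in the hairpin library, at 191 FPKM in Z138 shBTK against 212 in Z138 control. MANF, a secreted ER protein that binds BiP, was at 27.2 and 18.4 FPKM in Mino shBTK and Mino control and at 217 and 226 in Z138 shBTK and Z138 control. HYOU1 (GRP170), which exchanges the nucleotide of BiP, was at 53.3 and 37.1 FPKM in Mino shBTK and Mino control and at 85.3 and 87.7 in Z138 shBTK and Z138 control. The Mino differences of MANF and HYOU1 were 0.54 and 0.51 log2 units, while their Z138 differences of −0.05 and −0.04 were near 0.

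The J-domain co-chaperones of BiP followed with smaller differences. DNAJB9 (ERdj4) was at 23.0 FPKM in Mino shBTK and 16.5 in Mino control, a difference of 0.46 log2 units, and at 45.0 and 42.9 in Z138 shBTK and Z138 control. DNAJC10 (ERdj5), which also reduces disulfides, was at 10.7 and 8.36 FPKM in Mino shBTK and Mino control, and CRELD2, an ER stress-induced protein, at 27.1 and 21.6, just short of the smaller threshold. DNAJB11 (ERdj3) and DNAJC3 (p58IPK) differed by 0.29 and 0.28 log2 units in Mino. DNAJC3 had the largest positive difference of the set in Z138, 0.23 log2 units, at 21.6 FPKM in Z138 shBTK and 18.3 in Z138 control. HSP90B1, the ER form of HSP90 known as GRP94, differed by nearly the same amount in both lines before any correction. It was at 202 and 178 FPKM in Mino shBTK and Mino control (0.18 log2 units) and at 490.0 and 428 in Z138 shBTK and Z138 control (0.19). Its differences were 0.18 in Mino and 0.10 in Z138 with the trends on GC content and length removed. Those of DNAJC3 were then 0.33 and 0.09.

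Several kinds of response element sit before the genes of this group, and the promoters of HSPA5, SDF2L1 and HYOU1 are shown as examples with an ERSE, an ERSE-II and a UPRE. Each sequence is the 250 bases before the start site, in the direction of the gene, with matches in capitals.
HSPA5, chr9:125241344-125241593, minus strand: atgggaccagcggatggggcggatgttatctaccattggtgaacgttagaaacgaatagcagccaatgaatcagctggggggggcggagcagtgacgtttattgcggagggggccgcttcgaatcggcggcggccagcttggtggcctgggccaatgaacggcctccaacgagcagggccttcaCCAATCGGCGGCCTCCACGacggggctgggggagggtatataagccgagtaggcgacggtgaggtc
SDF2L1, chr22:21642052-21642301, plus strand: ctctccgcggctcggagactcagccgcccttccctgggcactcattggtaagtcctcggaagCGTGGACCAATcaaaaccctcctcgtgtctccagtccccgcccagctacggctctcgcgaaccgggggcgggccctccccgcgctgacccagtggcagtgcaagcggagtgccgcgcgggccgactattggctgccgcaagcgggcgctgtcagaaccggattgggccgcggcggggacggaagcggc
HYOU1, chr11:119057206-119057455, minus strand: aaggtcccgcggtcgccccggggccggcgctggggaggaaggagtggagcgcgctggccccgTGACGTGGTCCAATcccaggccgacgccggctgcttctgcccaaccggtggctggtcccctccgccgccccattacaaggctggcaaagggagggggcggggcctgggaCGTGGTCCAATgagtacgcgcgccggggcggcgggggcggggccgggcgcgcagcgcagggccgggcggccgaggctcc
In HYOU1 the first run of capitals joins a UPRE and an ERSE-II that overlap, and the second is another ERSE-II. Both ERSE-II matches of HYOU1 and that of SDF2L1 are on the strand opposite to the gene.

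The lectin chaperones hold glycoproteins until they fold, and both were slightly higher in Mino shBTK. CALR, the soluble form, was at 345 FPKM in Mino shBTK and 297 in Mino control, and at 486 and 483 in Z138 shBTK and Z138 control. CANX, the membrane form, was at 123 and 116 FPKM in Mino shBTK and Mino control and at 260.0 and 223 in Z138 shBTK and Z138 control, so its larger difference lay in Z138 (0.22 log2 units, against 0.08 in Mino). These differences were 0.12 in Z138 and 0.09 in Mino with the trends on GC content and length removed. The 4 disulfide isomerases were all higher in Mino shBTK, with a median of 0.28 log2 units. PDIA3 (ERp57), which works with the lectin chaperones, was at 74.5 FPKM in Mino shBTK and 52.8 in Mino control, a difference of 0.49. PDIA4 (ERp72) was at 86.6 and 67.6 FPKM in the same libraries, a difference of 0.35. PDIA6 and P4HB, the classic isomerase, differed by 0.21 and 0.12 log2 units. In Z138 none of the 4 isomerases differed by more than 0.08 log2 units in either direction.

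Degradation genes return unfolded protein to the cytosol for ubiquitination, and all 8 were higher in Mino shBTK, by a median of 0.27 log2 units. SYVN1, the ubiquitin ligase known as HRD1, was at 145 FPKM in Mino shBTK and 108 in Mino control. HERPUD1, which organises the ligase complex, was at 278 and 210.0 FPKM in these libraries. DERL2, a membrane pseudoprotease, was at 18.6 and 14.7. These 3 were the degradation genes past the smaller threshold, with differences of 0.42, 0.40 and 0.32 log2 units. SEL1L, the partner of SYVN1, differed by 0.30, and the mannosidase-like genes EDEM2 and EDEM1 by 0.24 and 0.06. DERL1 and DERL3 differed by 0.15 and 0.09. In Z138, 7 of the 8 were lower in the hairpin library (43.7% of all symbols). SYVN1 was at 106 FPKM in Z138 shBTK and 126 in Z138 control, HERPUD1 at 223 and 258, and EDEM2 at 27.4 and 33.5. SEL1L, at 56.2 and 54.3 FPKM, was the exception (0.05 log2 units). Its Z138 difference was −0.11 with the trends on GC content and length removed.

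Translocon genes encode the channel through which nascent proteins enter the ER. SEC61A1, the channel itself, was at 132 FPKM in Mino shBTK and 96.8 in Mino control, a difference of 0.44 log2 units, while the small subunits SEC61G and SEC61B differed by 0.25 and 0.11. The TRAP subunits SSR3 and SSR4 were at 50.6 and 227 FPKM in Mino shBTK and at 39.1 and 183 in Mino control. SSR1 and SSR2 differed by 0.22 and 0.17 log2 units. All 7 genes were thus higher in Mino shBTK. In Z138, 5 of the 7 were lower in the hairpin library (43.7% of all symbols). SSR1 and SSR3 were higher there, each by 0.09 log2 units. Their Z138 differences were −0.06 and −0.03 with the trends on GC content and length removed. SSR4 was at 745 FPKM in Z138 shBTK and 967 in Z138 control, a difference of −0.38 log2 units and the only one of the 36 past 0.32 in size in that line. SSR2 was at 1107 and 1366 FPKM in these libraries, a difference of −0.30.

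In Z138 as a whole, 15 of the 36 genes were higher in Z138 shBTK and 21 were lower, where 55.3% of all tested symbols were higher and 43.7% lower. At 0.32 log2 units, 0 were higher (5.32% of all symbols) and 1 was lower (4.17%). At 1.5-fold, 0 differed in either direction (0.94% of symbols higher, 0.819% lower). The median difference was −0.03 log2 units over the 36 genes and 0.03 over all tested symbols, and it turned to 0.03 with each library scaled to a sum of 1000000 and to 0.01 when ribosomal protein genes were left out of that scaling. Under these scalings 21 and 19 of the 36 genes were on the higher side. With trends on GC content and length removed, 12 were, and the median was −0.04. The median of the genes thus lay near 0 in Z138, in contrast to Mino. Because each line has 1 pair of libraries, the difference between the lines in response could not be tested.

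**Figure D2:**
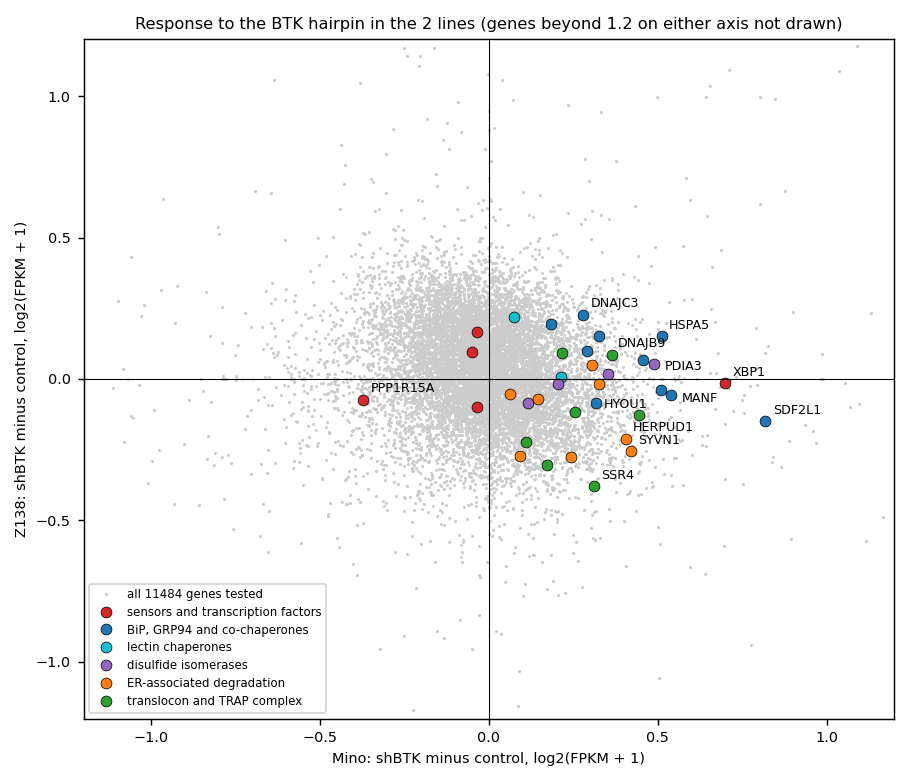
Difference between shBTK and control in Mino (horizontal axis) and Z138 (vertical axis), log2(FPKM + 1), for the tested genes in grey (those beyond 1.2 on either axis are not drawn) and the 36 genes coloured by role. The coloured points lie mostly right of 0, with a median of 0.28, and spread around 0 on the vertical axis, with a median of −0.03.

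The differences in Z138 followed base composition. Over the 36 genes, Spearman's rank correlation between the Z138 difference and the GC content of the longest transcript was −0.62, close to the −0.56 over 11234 tested symbols with a value. In Mino, that correlation was −0.01 over the 36 genes and 0.11 over all symbols. These are relations across genes within single pairs of libraries, and genes are not independent replicates. Of the 18 genes with the lower GC content (36.1% to 45.8%), 11 were higher in Z138 shBTK, with a median of 0.06 log2 units. Of the 18 with the higher GC content (46.0% to 65.5%), 4 were higher, with a median of −0.09. In Mino the medians were 0.27 and 0.31 and 17 and 15 genes were higher. With the trends on GC content and length removed, the Z138 medians were −0.04 and −0.01 and the Mino medians 0.31 and 0.28. The Z138 difference of SSR4 was then −0.25 log2 units, and SSR2 became the only gene past 0.32 in size (−0.37). The Mino differences of XBP1, SDF2L1 and HSPA5 were 0.71, 0.79 and 0.51.

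**Figure D3:**
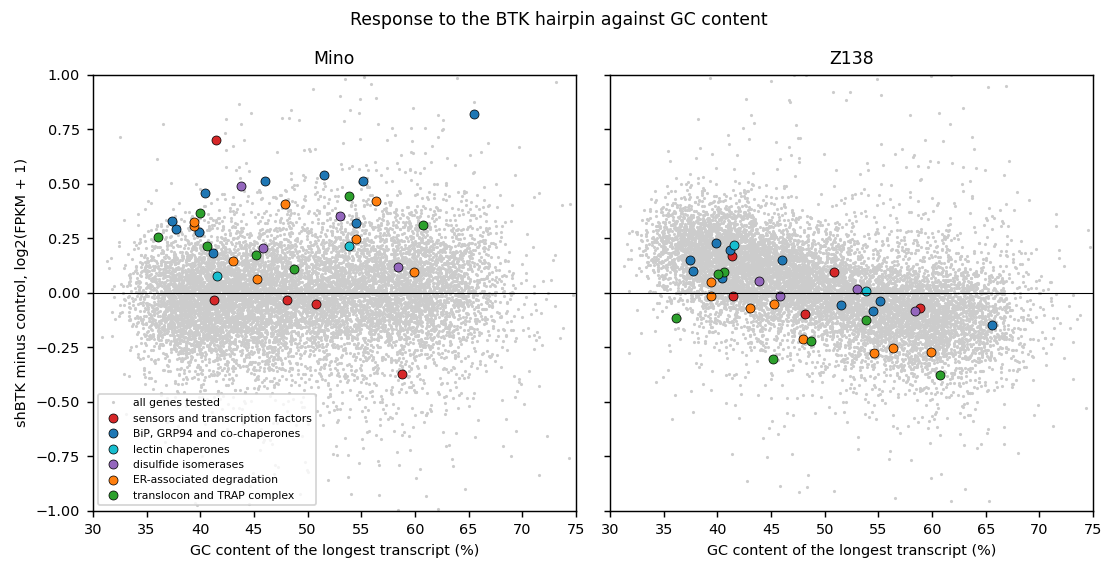
Difference between shBTK and control, log2(FPKM + 1), against the GC content of the longest transcript in Mino (left) and Z138 (right), with the tested genes that have a value in grey and the 36 genes coloured by role. In Z138 the points go down from left to right (rank correlation −0.62 over the 36 genes), and in Mino they show no such slope (rank correlation −0.01).

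The hairpin was then compared across both lines in 1 model with the line as a block. None of the 36 genes passed at an adjusted p of 0.05 in limma, where 0.061% of all symbols were called higher and 0.061% lower. The symbols called, 7 higher and 7 lower, became 16 higher and 7 lower when libraries were scaled without ribosomal protein genes and 27 and 15 when each was centred on its median. They were 0 and 0 without the filter on low values and 0 and 0 without the line term, and 1 and 6 with GC content and length trends removed. At an unadjusted p under 0.05 there was 1 of the 36 genes, against 2.79% of all symbols. That gene was HSPA5, with a mean difference of 0.33 log2 units (SE 0.13, unadjusted p = 0.0356, adjusted p = 1.00 in limma, higher in 2 of 2 lines). XBP1 and SDF2L1 had mean differences as large, 0.34 (SE 0.17) and 0.33 (SE 0.21), with larger errors. DNAJC3 (0.25, SE 0.13), DNAJB9 (0.26, SE 0.14) and PDIA3 (0.27, SE 0.14) were above 0 in both lines. With GC content and length trends removed, their Z138 differences were 0.09, −0.03 and −0.02 log2 units. Altogether 13 of the 36 genes were higher in both hairpin libraries (23.1% of all symbols) and 19 were higher in Mino and lower in Z138 (24.1%). Spearman's rank correlation between the Mino and Z138 differences was 0.00 over the 36 genes.

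The lines differed far more from each other than hairpin from control. In the same limma model, 30 of the 36 genes were higher in Z138 than in Mino at an adjusted p of 0.05 (28.7% of all symbols) and 1 was lower (38.8%). Without the filter on low values, 0 of the 36 genes and 0 symbols were called in either direction. The median difference over the 36 genes was 1.08 log2 units, against −0.12 over all tested symbols. The n is 2 libraries per line, 1 with each vector, which are not replicate cultures. The error behind these p-values comes from how far the lines' responses to the hairpin differ. That of the gene itself counts less than the trend over all tested symbols. Between the control libraries alone, 21 genes were at least 2-fold higher in Z138 control (11.7% of all symbols) and 1 was lower (19.1%). The median there was 1.24 log2 units over the 36 genes and −0.15 over all symbols. The value over all symbols was −0.28 with libraries scaled to a sum of 1000000 and 0.04 with libraries centred on their median. Between the hairpin libraries, which do not involve the Z138 control library, the median over the 36 genes was 0.95.

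MANF led the difference between the lines. It was at 217 and 226 FPKM in Z138 shBTK and Z138 control and at 27.2 and 18.4 in Mino shBTK and Mino control, 3.25 log2 units higher in Z138 (SE 0.16, adjusted p = 1.22e-06 in limma). SDF2L1 was 2.52 units higher (SE 0.21), at 191 and 212 FPKM in the Z138 libraries against 45.8 and 25.5 in the Mino libraries. ERN1 was 2.08 units higher (SE 0.13) and SSR4 2.05 units higher (SE 0.17). No Z138 value of these 4 genes overlapped a Mino value, but they were named for having the largest differences of the set. The share of all tested symbols without such overlap was not counted. In limma, 28.7% of all symbols were called higher in Z138 and 38.8% lower. By role, all 10 genes of the BiP group, both lectin chaperones, all 4 isomerases and all 7 translocon genes were called higher in Z138, as were 5 of the 8 degradation genes and 2 of the 5 sensors and factors. The sensors called were ERN1 and ATF6 (0.52, SE 0.14). XBP1 did not pass (0.34, SE 0.17, adjusted p = 0.111 in limma), although it passed without symbols listed at 0 (adjusted p = 0.0468) and with centred libraries (adjusted p = 0.01).

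A few genes did not share this order. HERPUD1 (−0.01, SE 0.16), EDEM1 (−0.08, SE 0.12), SYVN1 (−0.11, SE 0.17) and CREB3L2 (−0.06, SE 0.12) did not pass in limma. PPP1R15A was lower in Z138, unlike the chaperones, at 48.3 and 50.9 FPKM in Z138 shBTK and Z138 control and 124 and 161 in Mino shBTK and Mino control, a difference of −1.49 log2 units (SE 0.13, adjusted p = 2.26e-05 in limma). The calls of DERL1, DERL3 and EDEM2, the smallest of the 30, were lost with libraries scaled to a sum of 1000000 (adjusted p = 0.134, 0.0833 and 0.0547).

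**Figure D4:**
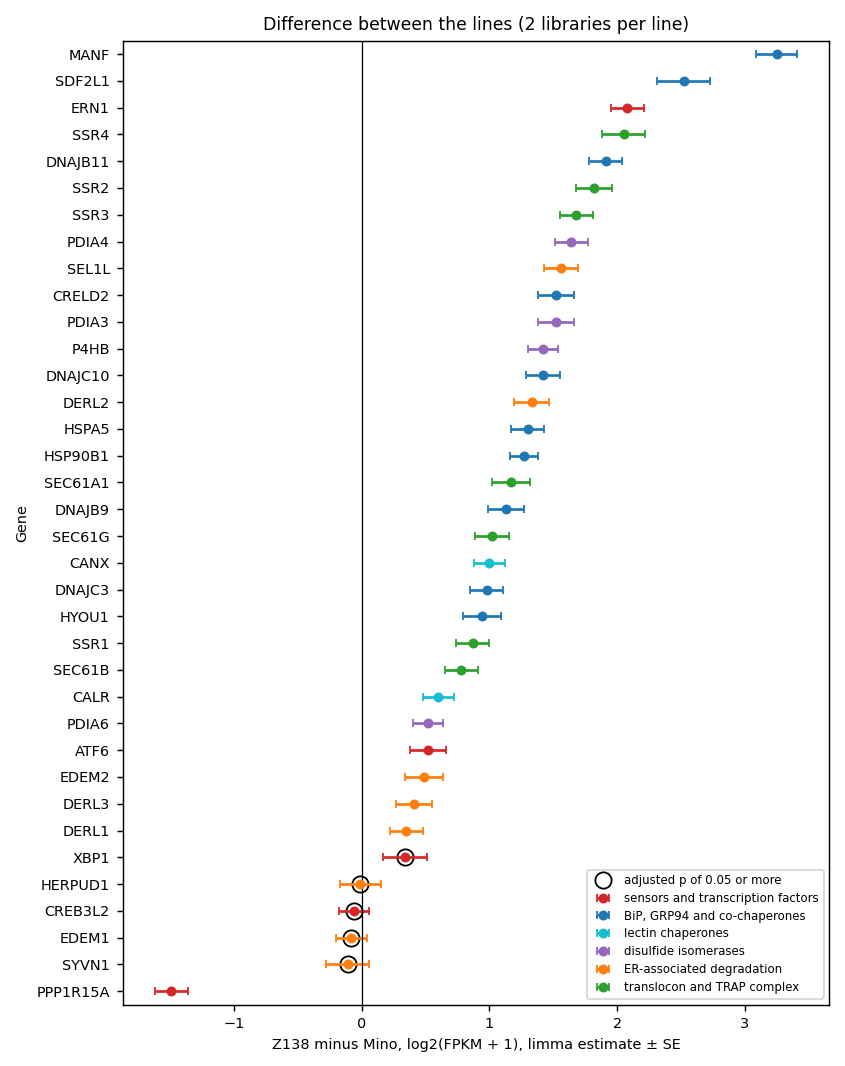
Difference between Z138 and Mino for the 36 genes, log2(FPKM + 1), as the limma estimate with its standard error over 2 libraries per line, sorted and coloured by role, with open rings for genes that did not pass. MANF is at the top at 3.25 and PPP1R15A at the bottom at −1.49.

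Plasma cell markers differed between the lines as well, though not all of them and not all in the same direction. Of 8 markers, 5 were called higher in Z138 in limma (28.7% of all symbols) and 1 lower (38.8%). Their summed level was 2241 and 2229.5 FPKM in Z138 shBTK and Z138 control and 402 and 375 in Mino shBTK and Mino control. The joining chain gene IGJ made up most of the Z138 sums, at 1340.2 and 1159 FPKM, and was at 1.33 and 2.29 in the Mino libraries. MZB1, an ER protein of antibody-secreting cells, was at 570.5 and 715 FPKM in Z138 shBTK and Z138 control and at 214 and 157 in Mino shBTK and Mino control. PRDM1, the plasma cell regulator, was at 7.66 and 7.16 FPKM in Z138 shBTK and Z138 control and 3.95 and 6.64 in Mino shBTK and Mino control. It was not called (adjusted p = 0.0603 in limma). IRF4 was not called either, at 123 and 135 FPKM in Z138 shBTK and Z138 control and 114 and 121 in Mino shBTK and Mino control. SLAMF7 was the marker called lower, at 0.451 and 0.306 FPKM in Z138 shBTK and Z138 control and 2.68 and 5.53 in Mino shBTK and Mino control. Within Mino, 7 of the 8 markers were lower in the hairpin library and MZB1 alone was higher, by 0.45 log2 units. The part of plasma cell character in the levels of the ER genes was not tested.

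Response elements were counted in the promoters of these genes and of all others. RefSeq windows of 300 bases, 250 before and 50 after each start site, were found for 33 of the 36 genes; PDIA3, DERL1 and DERL3 had none. On both strands, the ERSE (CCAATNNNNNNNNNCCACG) was found in 7 of the 33 genes (21.2%) and in 25 of 27305 symbols in all (0.0916%). The ERSE-II (ATTGGNCCACG) was found in 3 of the 33 (9.09%) and in 19 symbols in all (0.0696%). The UPRE, searched as TGACGTGG, was found in 4 of the 33 (12.1%) and in 253 symbols in all (0.927%). A UPRE and an ERSE-II overlap in HYOU1. In all, 13 of the 33 genes held at least 1 of these motifs. The share of all symbols with at least 1 of them was not counted. The 36 genes were chosen for known roles in the response that acts through such elements. Their larger shares may therefore follow from that choice. A match is a description of the letters and does not show that a factor binds there.

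The ERSE matches of 4 further genes are printed to show the bases that stood between the CCAAT and CCACG ends, which the search fixed. Each line is in the direction of the gene, with the match in capitals and 10 bases on either side, so that a match on the opposite strand reads as CGTGG first.
HSP90B1, chr12:103930206-103930244, plus strand: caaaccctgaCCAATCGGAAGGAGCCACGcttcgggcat
HSP90B1, chr12:103930311-103930349, plus strand: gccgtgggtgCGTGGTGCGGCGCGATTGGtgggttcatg
CALR, chr19:12938374-12938412, plus strand: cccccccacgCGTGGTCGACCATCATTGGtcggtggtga
PDIA6, chr2:10812843-10812881, minus strand: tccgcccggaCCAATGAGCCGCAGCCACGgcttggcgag
CRELD2, chr22:49918544-49918582, plus strand: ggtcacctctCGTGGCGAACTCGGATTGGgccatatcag
HSP90B1 holds an ERSE on each strand. The match of CANX, the remaining ERSE gene, is not printed, and its Mino difference was 0.08 log2 units. The only ERSE-II not yet shown is that of HERPUD1, whose match lies on the strand of the gene.
HERPUD1, chr16:56932015-56932045, plus strand: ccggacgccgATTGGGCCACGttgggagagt

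The UPRE matches outside HYOU1 were in DNAJC10, SSR3 and SSR4, all on the opposite strand, where the motif reads CCACGTCA.
DNAJC10, chr2:182716122-182716149, plus strand: gcgcacaccgCCACGTCAacctaaacct
SSR3, chr3:156554149-156554176, minus strand: ctgataacagCCACGTCAgcaaggaaac
SSR4, chrX:153794529-153794556, plus strand: cagggaggggCCACGTCAgtgctgccag

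Genes with and without a match were then set side by side in Mino. The 13 genes with a match were all higher in Mino shBTK, with a median difference of 0.33 log2 units and a range of 0.08 to 0.82. The 20 genes without a match had a median of 0.25 and a range of −0.37 to 0.54, and 16 of them were higher. Both ranges overlap widely. By motif, the 7 ERSE genes had a median of 0.21, the 3 ERSE-II genes 0.51 and the 4 UPRE genes 0.35. In Z138 the medians were −0.01 with a match and −0.05 without. MANF, DNAJB9 and SEC61A1 held none of these letters in the windows searched, with Mino differences of 0.54, 0.46 and 0.44.

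Other genes of the pathway were read from 7 further lists of 96 genes, 90 of which passed the filter. In Mino, 64 of the 90 were higher in the hairpin library (47.7% of all symbols). Past 0.32 log2 units there were 13, all higher (4.44% of all symbols). The median was 0.13 log2 units, against 0.28 over the 36 genes. None passed across lines in limma (1 had an unadjusted p under 0.05, against 2.79% of all symbols). The list called the PERK arm had the highest median, 0.43 over 8 genes. It holds EIF2AK3, PPP1R15B, ATF4, DDIT3, ATF3, TRIB3, CHAC1 and ASNS, of which 6 were higher and 2 lower. PPP1R15A, with −0.37, was counted among the sensors and factors instead. Whether PERK itself was more active was not tested. CHAC1, a glutathione-degrading enzyme, was at 91.2 FPKM in Mino shBTK and 52.3 in Mino control, and TRIB3, a pseudokinase induced by ATF4, at 239 and 141. EIF2AK3, the sensor PERK, was not higher, at 11.3 and 12 FPKM in these libraries. Its difference of −0.08 log2 units stood beside those of ERN1 (−0.05) and ATF6 (−0.04).

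Further folding enzymes had a median of only 0.04 log2 units in Mino. HSPA13, another ER HSP70, was at 14.9 FPKM in Mino shBTK and 11.2 in Mino control, and the prolyl isomerase FKBP2 at 48.1 and 37.9. FKBP11, an isomerase of secretory cells, differed widely between the lines, at 474 and 589.7 FPKM in Z138 shBTK and Z138 control and at 27.3 and 24.4 in Mino shBTK and Mino control. Among degradation genes outside the set, WFS1 was at 9.59 and 6.15 FPKM and the signal peptide peptidase HM13 at 36.4 and 25.5 in Mino shBTK and Mino control, and the list had a median of 0.07. For signal recognition and signal peptidase genes the median was 0.11, with SRPRB, a subunit of the signal recognition particle receptor, at 20.2 and 14.3 FPKM and the translocating chain protein gene TRAM1 at 48.7 and 36.4. The oligosaccharyltransferase list had a median of 0.18 in Mino and −0.04 in Z138, where DAD1 was at 204 FPKM in Z138 shBTK and 283 in Z138 control. ER to Golgi transport genes had a median of 0.17 in Mino, with KDELR2, a receptor that returns ER proteins, at 75.3 and 56.0 FPKM. The sensor relative ATF6B was listed at 0 in all 4 libraries. BHLHA15, a transcription factor of secretory cells, was at 82.5 and 79.7 FPKM in Z138 shBTK and Z138 control and at 9.50 and 8.10 in Mino shBTK and Mino control.

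Heat shock genes of the cytosol and mitochondria, which answer to a different stress sensor, differed from the ER chaperones in direction in Mino. HSPA1A and HSPA1B did not pass the filter. All 11 that passed were lower in Mino shBTK (51.9% of all symbols), with a median of −0.50 log2 units. Of these, 9 were lower by at least 0.32 log2 units (5.75% of all symbols). DNAJB1, a cytosolic J-domain co-chaperone, was at 81.5 FPKM in Mino shBTK and 197 in Mino control, and HSPA8, the constitutive cytosolic HSP70, at 249 and 432. In Z138 the median was 0.14 and 7 of the 11 were higher in the hairpin library. None of the 11 passed across lines in limma (2 had an unadjusted p under 0.05, against 2.79% of all symbols). Thus HSPA5 and HSPA8, HSP70 chaperones of different compartments, differed in opposite directions in Mino, by 0.51 and −0.79 log2 units.

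**Figure D5:**
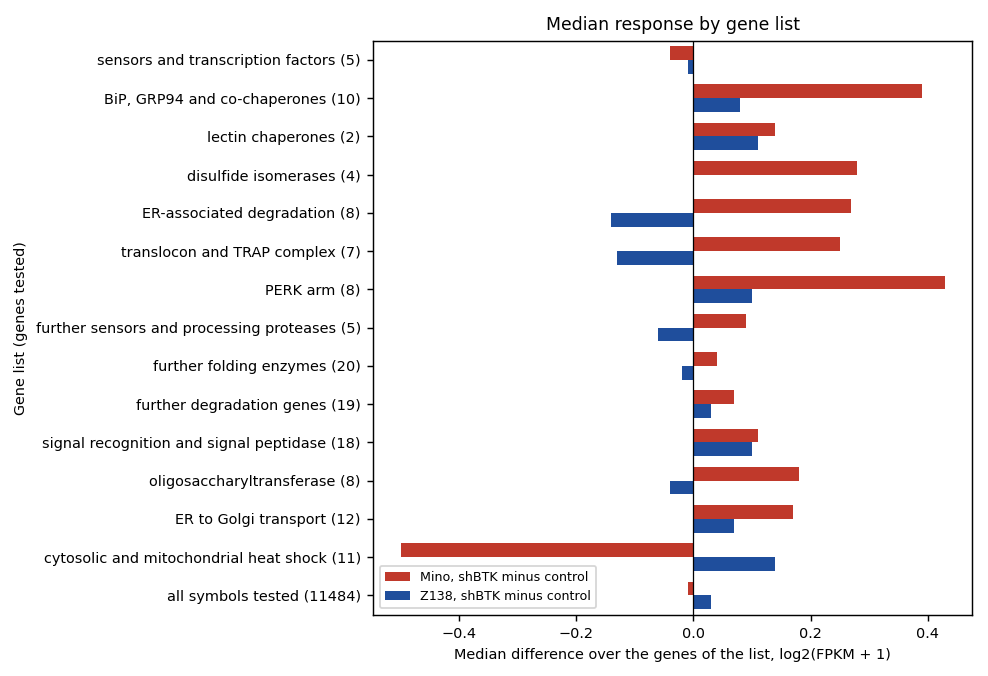
Median difference between shBTK and control, log2(FPKM + 1), over the genes of each list in Mino (red) and Z138 (blue), with the number of tested genes in parentheses. The BiP group (0.39) and the list called the PERK arm (0.43) have the highest medians in Mino, and the heat shock list the lowest (−0.50).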

How the data were processed

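Libraries of 4 cultures were prepared with a TruSeq RNA kit, as the labels' protocols say. The authors deposited 1 table of FPKM values with 1 column per library and 1 row per gene symbol, per the file headers. TopHat and hg19 are named in the submitters' processing notes; the program and annotation behind FPKM were not given in the sources used here. As FPKM is no count, depth is unknown: among symbols at or below 0.1 FPKM no step between libraries was shared by more than 12.6% of symbols within 0.05 log2 units. An exact 0 can be a failed estimate.

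Values were analysed as log2(FPKM + 1), which understates the change of low genes. The 11484 symbols that averaged 1 FPKM or more were tested with limma 3.58.1 in R 4.3.3, with line and hairpin as additive terms, a mean-variance trend and Benjamini-Hochberg adjustment over all of them at 0.05. With 1 residual degree of freedom, a gene's own error is how far the responses of the lines differ. limma draws it towards the trend over all tested symbols, which had more weight (6.88 prior degrees of freedom). Within a line, ratios of 1 library to 1 library carry no test. The script was tested on simulated data.

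Each symbol took GC content and length from its longest GENCODE release 29 transcript (97.8% of tested symbols), and these trends were removed in 1 alternative. Promoters came from RefSeq on GRCh38.p14; this is not the build named for the alignments, and no coordinate of the files was used. Promoter symbols missing from the table were matched through older symbols in RefSeq. Named genes were the 36 genes, BTK, the marker genes, up to 2 genes per line of each further list by largest difference at a mean of at least 5 FPKM, and genes chosen after their values were seen: EIF2AK3 and ATF6B among the sensors, and DNAJB1, HSPA8 and the promoter matches outside the set. The genes and lists were chosen with earlier results of these data known.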

Additional observations from a re-analysis of the deposited data

Results flagged for a closer look

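Of the 36 genes, 19 were above 0 in Mino and below 0 in Z138, that is, higher in the hairpin library of one line and lower in that of the other. In 4 of them both differences were past 0.20 log2 units. The Mino difference exceeded the Z138 difference by 0.69 log2 units for the TRAP subunit gene SSR4, by 0.67 for the ubiquitin ligase gene SYVN1, by 0.62 for its organiser HERPUD1 and by 0.52 for the mannosidase-like gene EDEM2. Whether the lines differ in this was not tested, as a line had 1 library of each vector. The GC content of these 4 genes was 60.8%, 56.3%, 47.9% and 54.6%, and with the trends on GC content and length removed their Z138 differences were −0.25, −0.17, −0.21 and −0.19 log2 units, while their Mino differences were 0.28, 0.41, 0.39 and 0.23. The part of base composition in the Z138 values beyond that correction was not tested.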

How the results depend on the processing

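In Mino, the median of the 36 genes stayed between 0.28 and 0.34 log2 units over 8 alternatives, and 14 to 19 genes were higher by at least 0.32 log2 units. In Z138 the median lay between −0.07 and 0.03, and 2 genes were lower by at least that much with libraries centred on their median. None of the 36 genes passed across lines in limma under any of 10 alternatives (unadjusted, 1 of them was under 0.05 as reported). Leaving out either line left a single ratio with no test, and the median response of 0.13 then ranged from −0.03 to 0.28. The symbols called higher and lower across lines (7 and 7) became 0 and 0 without a filter and 0 and 0 with no replicate block (the line term left out). The number called higher was 3 at a mean of 5 FPKM, 22 without symbols listed at 0, 16 with libraries scaled without ribosomal protein genes, 27 with centred libraries (15 lower), 1 with GC content and length trends removed and 17 with robust moderation. Between the lines, 0 symbols and 0 of the 36 genes were called in either direction without a filter. In the other 7 alternatives, 27 to 31 of the 36 genes were higher. The median of the control libraries was 1.10 with libraries scaled to a sum of 1000000 and 1.42 with centred libraries; with the hairpin libraries in place of the control libraries, chosen after seeing the data, it was 0.95. The cause of these shifts was not tested. Unknown depth limits the precision of every value.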

Other observations

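Outside the 36 genes, 10 tested symbols had an ERSE and 8 had an ERSE-II in their promoter window. In Mino, 5 of the 10 and 1 of the 8 were higher in the hairpin library (47.7% of all symbols), with medians of 0.00 and −0.10 log2 units. In Z138, 7 of the 10 and 3 of the 8 were higher (55.3% of all symbols), with medians of 0.09 and −0.09. SERP1, a stress-associated ER membrane protein gene, was at 106 FPKM in Mino shBTK and 93.3 in Mino control and at 165 and 147 in Z138 shBTK and Z138 control. FICD, whose product modifies BiP, was at 4.73 and 3.75 FPKM in Mino shBTK and Mino control and at 11 and 10.8 in Z138 shBTK and Z138 control. By contrast NUCB1 was at 56.0 and 61.5 FPKM in Mino shBTK and Mino control and at 47.4 and 54.8 in Z138 shBTK and Z138 control. These genes were named after their values were seen.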
